A study of Mus musculus with 4 samples.

Results

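Collagen chains were followed across the CD45-negative cells of mouse lymph nodes. The chains are the 40 genes, of 27745 gene names on the array, whose name is Col, a number, the letter a and a number, and they are read by 81 of the 41174 non-control probes. Of these 81 probes, 26 read fibrillar chains, 17 network-forming chains, 16 fibril-associated chains and 22 other types, and the class of a chain was set from textbook knowledge. The samples were cells of the mesenteric lymph node (mLN), the node that drains the intestine, and cells of the peripheral lymph node (pLN), and the labels do not say which peripheral nodes were taken. All mice were wild-type C57BL/6NCrl. Both nodes were taken in experiment 1 and in experiment 2, which gave 2 arrays per node, and nothing in the labels says how many animals made up a sample or whether the 2 experiments used separate animals, so the spread between arrays may be partly technical. All 4 samples share the same preparation, which was collagenase at 1 mg/ml in medium with 10% serum for 30 minutes at 37 degrees, followed by magnetic removal of cells that carry CD45, the leukocyte surface protein. The stated mean purity was 97.4% ± 2.0 for mLN and 97.5% ± 2.2 for pLN. The cells are a mixture, so fewer cells of a type and less RNA per cell cannot be told apart.

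Every collagen is built of chains wound around each other into a helix, and the helix needs glycine at a fixed spacing along each chain. Fibrillar collagens line up into rope-like fibres, network collagens form the sheets of basement membranes, and fibril-associated collagens sit on the surface of fibres and link them to their surroundings. In a lymph node the fibres are made and wrapped by fibroblastic reticular cells, the stromal cells that form the conduit network, while basement membranes line vessels and sinuses. A further set of collagens spans the cell membrane and serves in adhesion.

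The repeat that makes a chain a collagen can be read directly in some of the 60-base probes. Glycine codons have the form GGN and recur with a spacing of 9 bases inside the helix, and 3 of the 81 probes hold GGN at each such position. These 3 are printed here with 1 of the probes for Col13a1, the chain on which the test below turned. Capitals mark the GGN codons that fall on that spacing, which number 4 in the probe for Col13a1. Their positions on mm8, the build of the files, are chr2:27808732-27811155 on the plus strand for Col5a1, chr9:20536024-20536753 on the minus strand for Col5a3, chr17:33662796-33662962 on the plus strand for Col11a2 and chr10:61262825-61263194 on the minus strand for Col13a1. Each of these 4 spans is longer than the probe, so the probe joins exons.
Col5a1: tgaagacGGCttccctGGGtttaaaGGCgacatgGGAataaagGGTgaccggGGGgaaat
Col5a3: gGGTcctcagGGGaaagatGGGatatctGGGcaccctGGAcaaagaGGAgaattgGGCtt
Col11a2: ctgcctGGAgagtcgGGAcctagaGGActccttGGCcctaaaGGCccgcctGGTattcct
Col13a1: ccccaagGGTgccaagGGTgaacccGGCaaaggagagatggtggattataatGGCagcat

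The level of a probe is given as log2 of its processed signal minus the 75th percentile of the array, so that 0 is the level that 75% of probes do not exceed. The signal at that percentile lay between 1686 and 1741 on the 4 arrays. A level serves to compare arrays for 1 probe and not to rank 1 probe against another. Differences are mLN minus pLN on the log2 scale with standard errors, and ratios are mLN over pLN within an experiment, where each node has 1 array. A pair of ratios gives experiment 1 and then experiment 2. A probe was tested if the scanner software marked it as well above background on the 2 arrays of mLN, of pLN or of both. This held for 67 of the 81 probes and 38 of the 40 genes, all but Col10a1 and Col20a1. Of the tested probes, 61 were well above background on all 4 arrays, and the other 6 were tested through pLN alone. No collagen probe was saturated.

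Across the collagens the difference between nodes was small for most chains and large for a few named ones. Of the 67 tested probes, 44 (65.7%) had a difference under 0.5 in size, against 80.5% of all 31883 tested probes. The median over the collagen probes was 0.03, against -0.05 over all tested probes. In limma with Benjamini-Hochberg adjustment over all tested probes, 2 of the 67 collagen probes passed 0.05, both of them for Col13a1 and both lower in mLN, and none was higher. Of the 2, 1 was tested through pLN alone, and only the other passed when a probe had to be well above background on all 4 arrays. The background was 0.734% of all probes called, with 0.549% higher and 0.185% lower in mLN. With the experiment fitted as a block, the collagen probe that passed was instead one for Col14a1, higher in mLN, and the background was 0.991%. At an unadjusted p under 0.05 stood 15 collagen probes (22.4%, 9 higher and 6 lower in mLN), against 13.4% of all probes. A ratio of at least 2 in the same direction in both experiments was seen in 10 collagen probes (14.9%), against 3.93% of all probes. These probes read 7 genes, and probes of the same gene are not independent. With 1 probe per gene the count was 4 of 38, and no share by gene is given for the array. Of these 10, the 6 higher in mLN were network or fibril-associated chains, against a background of 2.38%, and the 4 lower in mLN were transmembrane chains, against 1.55%. Of these 4, 2 were tested through pLN alone, the node in which they were higher, and requiring all 4 arrays left 8 of the 10. In 32 probes (47.8%) the mLN and pLN arrays did not overlap, close to the 44.6% over all probes. In 14 of them (20.9%) mLN was higher and in 18 (26.9%) lower, against 18.7% and 25.9% of all probes. In simulated arrays of the same size, 50 probes each were changed by 1, 2, 4 or -1 on the log2 scale, of 31883. Of those changed by 1, 0% were called, of those changed by 2, 8%, and of those changed by 4, 74%. After adjustment these shares depend on how many probes change, which the simulation fixed, so they do not give the power in the real arrays. With 2 arrays per node, a missing call does not show that a difference is absent.

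**Figure D1:**
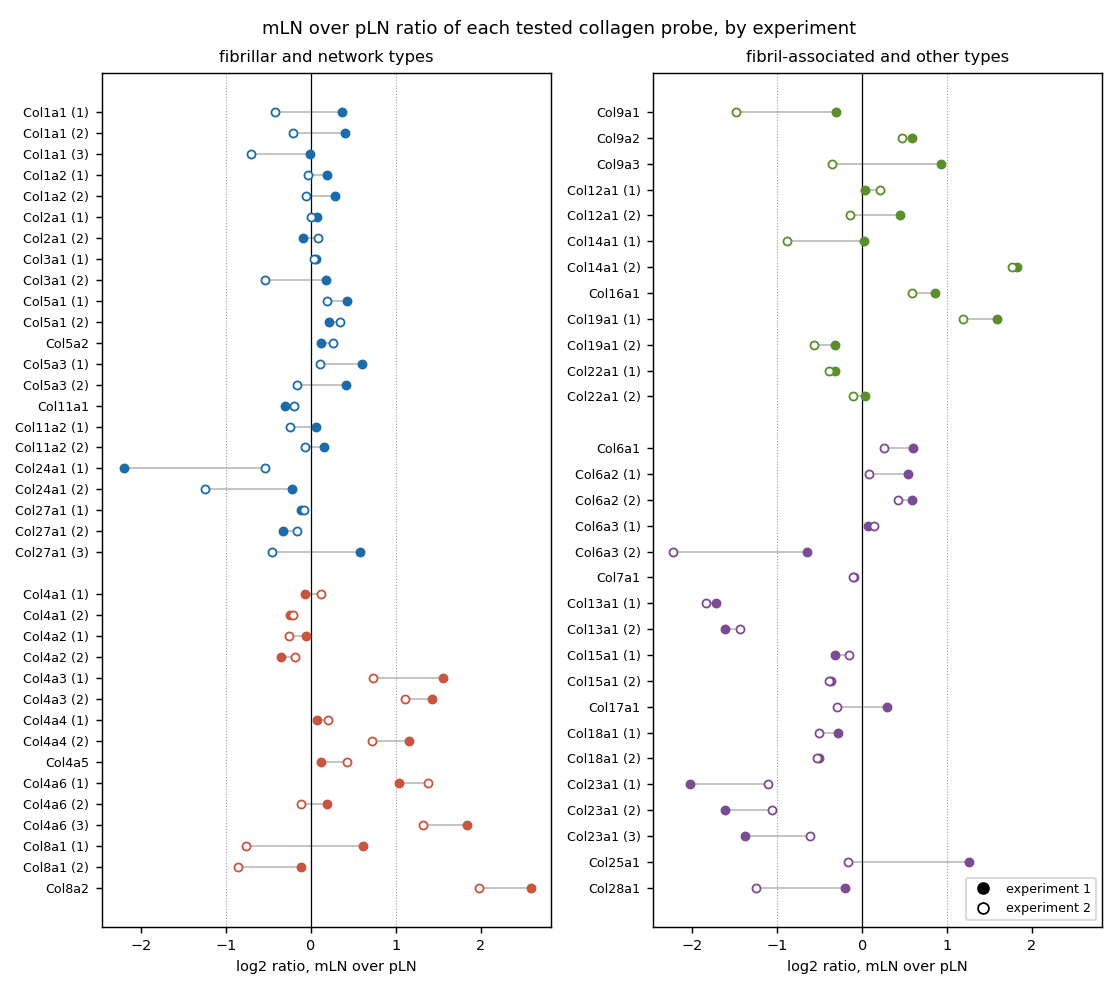
Ratio of mLN over pLN in experiment 1 (filled) and experiment 2 (open) for each of the 67 tested collagen probes, on a log2 axis, grouped as fibrillar, network, fibril-associated and other. Most points lie near 0, and 1 probe each for Col8a2, Col14a1, Col4a3 and Col19a1 and 2 for Col4a6 stand past 2-fold to the mLN side, and 2 probes each for Col13a1 and Col23a1 past 2-fold to the pLN side, in both experiments.

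The fibrillar chains were nearly level between the nodes. Col1a2 and Col1a1, the chains of type I collagen, and Col3a1, the chain of type III collagen in reticular fibres, were the brightest genes of this class by mean processed signal. The brightest Col1a2 probe (chr6:4490619-4490678) had levels of 7.68 and 7.49 in mLN and 7.49 and 7.53 in pLN. Its difference was 0.07 ± 0.15, with a 95% interval of -0.34 to 0.48. The brightest Col3a1 probe (chr1:45293290-45293349) had levels of 7.43 and 7.23 in mLN and 7.37 and 7.19 in pLN, and its interval ran from -0.40 to 0.49. Both of these intervals leave out a 2-fold difference in either direction. The brightest Col1a1 probe (chr11:94767851-94767910) had levels of 5.85 and 5.30 in mLN and 5.45 and 5.51 in pLN, with a ratio of 1.32 in experiment 1 and 0.862 in experiment 2 and an interval of -0.53 to 0.72. The arrays of the 2 nodes overlapped for all 3 probes, and the sign of each difference turned under another background correction, as given in the closing section.

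**Figure D2:**
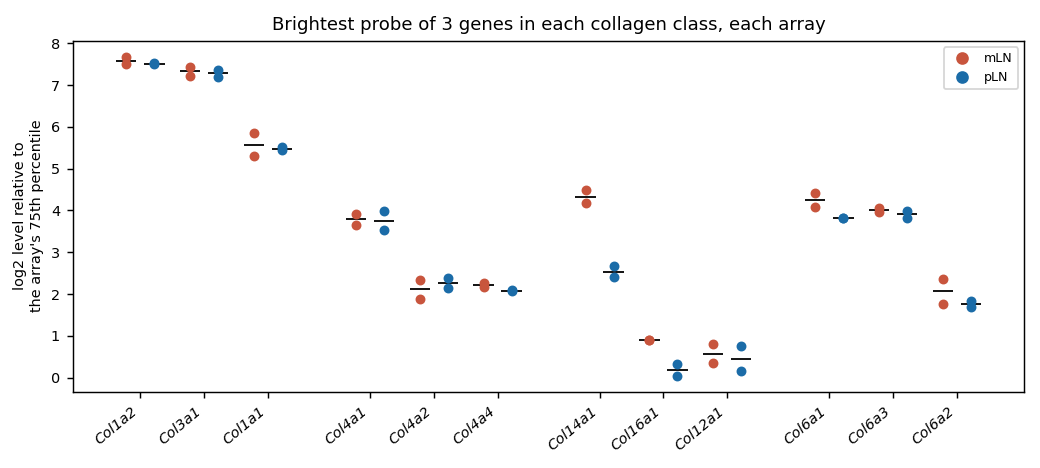
Level on each array (log2 of the signal minus the 75th percentile of the array) for the 3 brightest collagen genes of each class, mLN left in red and pLN right in blue, with a black line at the mean of the 2 arrays. Apart from Col14a1 and Col16a1, the points of mLN and pLN lie close together or overlap.

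The other fibrillar probes also stayed close to 0. Of the 22 tested fibrillar probes, 20 had a difference under 0.5 in size and the class median was 0.04, with values between -0.064 and 0.16 when 1 array was left out. The 2 remaining probes of Col1a1 had ratios of 1.29 and 0.989 in experiment 1 and of 0.744 and 0.614 in experiment 2. A second Col1a2 probe had ratios of 1.21 and 0.963, and a second Col3a1 probe had ratios of 1.13 and 0.687. Type V collagen, which joins type I in fibres and limits their width, was read by 5 probes for Col5a1, Col5a2 and Col5a3. All 5 had a positive difference, between 0.12 and 0.35, and none passed the test. The probes printed above had ratios of 1.16 and 1.27 for Col5a1, of 1.33 and 0.890 for Col5a3 and of 1.11 and 0.952 for Col11a2. The other probes of type V had ratios of 1.34 and 1.14 for Col5a1, 1.09 and 1.20 for Col5a2 and 1.52 and 1.08 for Col5a3. These ratios held no 2-fold step in either experiment.

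Chains of cartilage fibres had 5 tested probes, all close to level between the nodes, and 3 probes (1 for Col2a1 and 2 for Col11a1) that were well above background on no array. Col2a1, the chain of the main cartilage fibre, had 2 tested probes that share 40 bases, so they are not independent. These had levels of 3.51 and 3.13 in mLN and 3.43 and 3.12 in pLN for one, and -1.11 and -0.78 in mLN and -1.02 and -0.86 in pLN for the other. Their ratios lay between 0.938 and 1.06 in both experiments. Of 8 cartilage and bone markers found on the array, 5 were tested, 4 of them with a negative difference and none past the threshold, and the summed signal of the list was 2138 to 2141 in mLN and 2634 to 2928 in pLN. Matn1, Matn3 and Ibsp were not well above background on both arrays of either node. Acan, Comp, Sox9 and Hapln1 were well above background on all 4 arrays. Their differences were -0.19 ± 0.14, -1.44 ± 0.41, 0.78 ± 0.28 and -0.88 ± 0.20 in the brightest probes. Bglap1 had -0.76 ± 0.35 and was well above background on 3 arrays. Col11a1, a partner of type II collagen, had 1 tested probe with ratios of 0.808 and 0.868, and the second Col11a2 probe had ratios of 1.04 and 0.845. Col27a1, a minor fibrillar chain, had ratios of 0.924 and 0.942, of 0.793 and 0.893, and of 1.49 and 0.729 in its 3 probes.

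Col24a1, another minor fibrillar chain, was the exception of the class. The probe at chr3:145488895-145488954 had levels of -7.71 and -6.31 in mLN and -5.51 and -5.76 in pLN, and stayed below the well-above-background mark on both mLN arrays. Its ratios were 0.217 and 0.685, and its interval ran from -2.73 to -0.02, with an adjusted p of 0.364. Dim mLN signal was raised, where lower, to the lowest signal well above background on the array, which changed experiment 1 alone. After raising, the mean was 2.08-fold lower in mLN, which is no lower limit. The other Col24a1 probe had levels of -4.37 and -5.05 in mLN and -4.14 and -3.79 in pLN, and ratios of 0.856 and 0.419. The arrays of both Col24a1 probes were ordered with mLN below pLN, without a call, and 25.9% of all tested probes showed this order. The first of the 2 probes was tested through pLN alone, the node in which it was higher.

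Among network collagens, Col4a1 and Col4a2, the chains of nearly every basement membrane, did not separate the nodes, while several of the less widespread chains stood higher in mLN without passing the test. The median over the 15 tested network probes was 0.13, with a range of -0.49 to 2.28, and was 0.45 without mLN of experiment 2, 0.26 without pLN of experiment 1 and 0.072 without pLN of experiment 2. The brightest Col4a1 probe (chr8:11198981-11199040) had levels of 3.93 and 3.64 in mLN and 3.99 and 3.52 in pLN, with an interval of -0.59 to 0.65. The brightest Col4a2 probe (chr8:11448812-11448871) had levels of 2.34 and 1.89 in mLN and 2.39 and 2.15 in pLN, with an interval of -0.75 to 0.44. Their second probes had ratios of 0.844 and 0.861 for Col4a1 and of 0.782 and 0.879 for Col4a2. These 2 genes lie beside each other, and the values of both moved with the experiment, higher in experiment 1 than in experiment 2 in both nodes.

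Col4a3 to Col4a6 encode the chains of more specialised basement membranes, such as those of kidney and smooth muscle. Col4a6, which pairs with Col4a5, had 3 probes. The probe at chrX:136411815-136411874 had levels of -0.83 and -1.54 in mLN and -2.66 and -2.86 in pLN, a ratio of 3.57 in experiment 1 and 2.50 in experiment 2, and a difference of 1.58 ± 0.29 (adjusted p = 0.141). The probe at chrX:136412641-136412700 had levels of -2.89 and -3.14 in mLN and -3.92 and -4.52 in pLN, ratios of 2.05 and 2.60, and a difference of 1.20 ± 0.26 (adjusted p = 0.178). The third, at chrX:136413257-136413316, lay between -1.79 and -1.56 in mLN and between -1.75 and -1.67 in pLN, with a difference of 0.03 ± 0.16. Probes for Col4a6 thus disagreed by over 1 on the log2 scale, although all 3 lie within a short stretch of the X chromosome. Col4a5 was read by 1 probe with ratios of 1.09 and 1.34 and a difference of 0.27 ± 0.29.

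Col4a3 was higher in mLN in both tested probes. The probe at chr1:82599977-82600036 had levels of -4.27 and -5.30 in mLN and -5.70 and -6.40 in pLN, a ratio of 2.69 in experiment 1 and 2.15 in experiment 2, and a difference of 1.27 ± 0.44 (adjusted p = 0.347). The probe at chr1:82600224-82600283 had levels of -3.34 and -4.28 in mLN and -4.89 and -5.00 in pLN, with ratios of 2.93 and 1.65. Each of these probes separated the nodes, by a gap smaller than the step between the 2 mLN arrays. Col4a4, which lies next to Col4a3, was read by 2 probes. The brighter one (chr1:82329747-82329775) had levels of 2.16 and 2.27 in mLN and 2.09 and 2.07 in pLN, with an interval of -0.25 to 0.52. Its other probe had levels of -1.55 and -2.98 in mLN and -2.70 and -3.69 in pLN, where the groups overlapped.

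Col8a2 showed the largest positive difference of any tested collagen probe. It encodes a short-chain network collagen known from the basement membrane of the corneal endothelium and from vessels. Its probe (chr4:125816501-125816560) had levels of -0.29 and -0.92 in mLN and -2.88 and -2.90 in pLN. Both mLN arrays stood far above both pLN arrays, which were nearly identical. The probe was named for the size of its difference, so this order adds no support. The ratio was 6.01 in experiment 1 and 3.93 in experiment 2, and the difference was 2.28 ± 0.25, a 4.86-fold higher mean with an adjusted p of 0.0629. The 2 probes for its partner Col8a1 had ratios of 1.53 and 0.924 in experiment 1 and of 0.590 and 0.551 in experiment 2, and differences of -0.07 ± 0.43 and -0.49 ± 0.26.

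**Figure D3:**
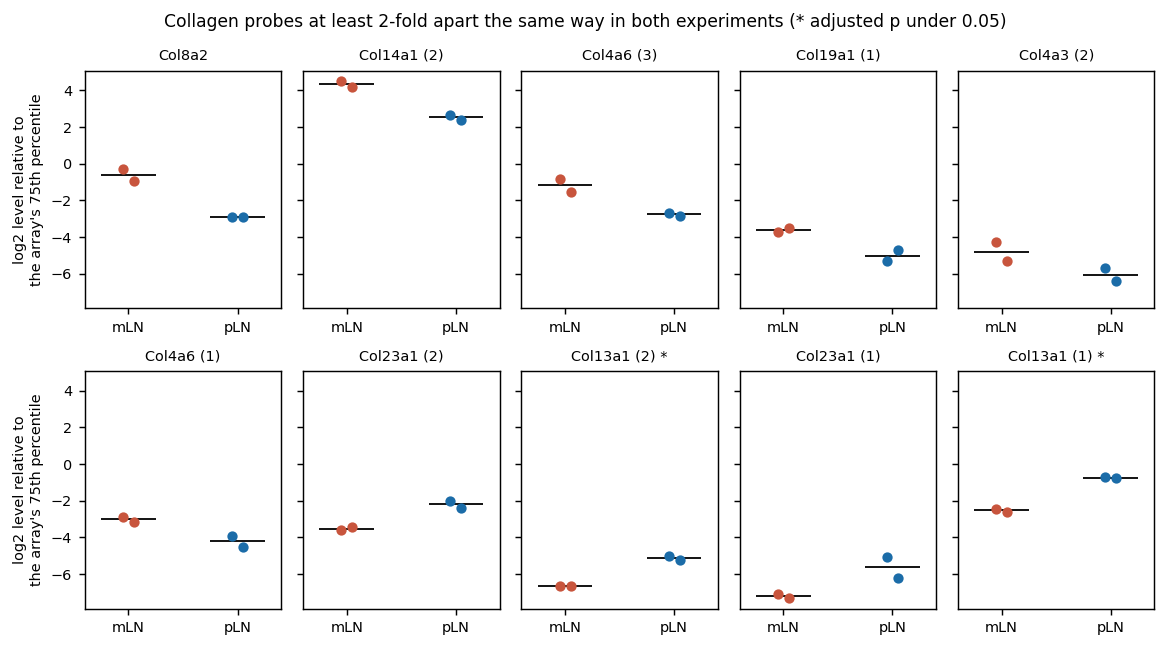
Level on each array for the 10 collagen probes with a ratio of at least 2 the same way in both experiments, mLN left in red and pLN right in blue, in log2 units relative to the 75th percentile, with a black line at the mean of the 2 arrays. In 6 probes (Col4a3, Col4a6 with 2 probes, Col8a2, Col14a1 and Col19a1) both mLN arrays lie above both pLN arrays, and in 4 (Col13a1 and Col23a1 with 2 probes each) both lie below.

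Among the fibril-associated chains, Col14a1 showed the largest difference. It encodes the type XIV chain, which binds the surface of type I fibres. Its probe at chr15:55350660-55350719 had levels of 4.49 and 4.17 in mLN and 2.66 and 2.41 in pLN. The signals were 39116 and 31211 in mLN and 10974 and 8974 in pLN. The ratio was 3.55 in experiment 1 and 3.39 in experiment 2. The difference was 1.79 ± 0.19, a 3.47-fold higher mean, with an adjusted p of 0.0595, and of 0.0490 with the experiment as a block. Only the blocked fit called it, of these 2 fits. A second Col14a1 probe, at chr15:55174960-55175019, had levels of -6.25 and -7.40 in mLN and -6.27 and -6.51 in pLN. It was well above background on 1 of the 2 mLN arrays. Its ratios were 1.02 and 0.540 and its difference was -0.43 ± 0.42 (adjusted p = 0.744), opposite in sign to the first probe. After raising, the fold of pLN over mLN was 0.992.

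Col12a1 and Col16a1 were the other bright genes of the class. Col12a1, a close relative of Col14a1 that also coats type I fibres, had a difference near 0. Its brighter probe (chr9:79385147-79385206) had levels of 0.79 and 0.36 in mLN and 0.76 and 0.15 in pLN, and a difference of 0.12 ± 0.29. Its other probe had ratios of 1.36 and 0.907. Col16a1, a minor chain found near fibres and microfibrils, had levels of 0.91 and 0.90 in mLN and 0.05 and 0.31 in pLN in its tested probe (chr4:129601405-129601464). The nodes did not overlap, with mLN higher, an order that 18.7% of all tested probes showed. The difference was 0.72 ± 0.17 with an adjusted p of 0.193.

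Col19a1, a rare chain found in basement membrane zones, had probes that disagreed. The probe at chr1:24218751-24218810 had levels of -3.73 and -3.52 in mLN and -5.32 and -4.71 in pLN, ratios of 3.01 and 2.28, and a difference of 1.39 ± 0.26 (adjusted p = 0.148). The probe at chr1:24217054-24217113 had levels of -5.22 and -5.70 in mLN and -4.90 and -5.13 in pLN, ratios of 0.799 and 0.672, and a difference of -0.45 ± 0.23. The first placed mLN above pLN on all arrays and the second placed it below. Type IX collagen, which decorates cartilage fibres, gave ratios of 1.50 and 1.39 for Col9a2 and of 1.91 and 0.784 for Col9a3. Col9a1 was well above background on 1 of the 2 mLN arrays and had ratios of 0.809 and 0.356. Its mean was 1.35-fold lower in mLN after raising, with an adjusted p of 0.374. Col22a1, known from tissue junctions such as that of muscle and tendon, had ratios of 0.802 and 0.763 in one probe and 1.02 and 0.927 in the other. The median over the 12 tested probes of the class was 0.14, with a range of -0.90 to 1.79, and it was -0.12 without mLN of experiment 1, 0.36 without mLN of experiment 2 and -0.082 without pLN of experiment 2.

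Col13a1 passed the test, with both of its probes lower in mLN, in the fit without a block. It encodes a transmembrane collagen of cell adhesion sites, known for its part at the neuromuscular junction. The probe at chr10:61233886-61233945 had levels of -2.43 and -2.62 in mLN and -0.71 and -0.78 in pLN. In signal, these were 323 and 281 in mLN and 1063 and 983 in pLN. Both mLN arrays stood below both pLN arrays by a gap many times the step within either node. The probe was named for its small adjusted p, so this gap adds no support. The ratio was 0.303 in experiment 1 and 0.278 in experiment 2. The difference was -1.78 ± 0.15, a mean 3.45-fold lower in mLN, with an adjusted p of 0.0352. The second probe, printed above, had levels of -6.63 and -6.65 in mLN and -5.01 and -5.21 in pLN, ratios of 0.325 and 0.368, and a difference of -1.53 ± 0.15 with an adjusted p of 0.0499. It was well above background on 1 of the 2 mLN arrays, and its mean was 2.75-fold lower in mLN after raising. With the experiment as a block, the adjusted p was 0.0505 and 0.0680. Leaving out any 1 array also ended both calls, with adjusted p between 0.0673 and 0.260 for the first probe and between 0.0917 and 0.286 for the second. The direction held in each of these fits and the calls did not. With normexp background correction the differences were -0.81 and 1.14, with adjusted p of 0.698 and 0.710.

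Col23a1, another transmembrane collagen, was lower in mLN in all 3 of its probes, none of which passed the test. The probe at chr11:51424301-51424360 had levels of -3.60 and -3.44 in mLN and -1.99 and -2.38 in pLN, ratios of 0.327 and 0.480, and a difference of -1.34 ± 0.20 (adjusted p = 0.107). The probe at chr11:51426806-51426865 had levels of -2.69 and -2.26 in mLN and -1.30 and -1.65 in pLN, with ratios of 0.383 and 0.653. The third, which joins exons at chr11:51411346-51412892, had levels of -7.10 and -7.30 in mLN and -5.07 and -6.19 in pLN, with ratios of 0.246 and 0.465. It stayed below the well-above-background mark on both mLN arrays. Its mean was 2.24-fold lower in mLN after raising, and its sign turned under normexp, to 1.35. All 3 probes put both mLN arrays below both pLN arrays, an order that 25.9% of all tested probes showed. The other transmembrane chains had ratios on either side of 1. Col17a1, a chain of epithelial hemidesmosomes, had ratios of 1.22 and 0.814 in its tested probe, and Col25a1, known from neurons, had ratios of 2.39 and 0.889.

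The beaded filament chains Col6a1, Col6a2 and Col6a3, which form a fine mesh around cells, were among the brightest of the remaining types. The Col6a1 probe (chr10:76152870-76152929) had levels of 4.42 and 4.07 in mLN and 3.82 and 3.81 in pLN, and a difference of 0.43 ± 0.18 (adjusted p = 0.429). The brighter Col6a2 probe (chr10:76039902-76039961) had levels of 2.37 and 1.76 in mLN and 1.83 and 1.68 in pLN, where the nodes overlapped. The brightest Col6a3 probe (chr1:92597492-92597551) had levels of 4.07 and 3.96 in mLN and 4.00 and 3.82 in pLN, with an interval of -0.31 to 0.52. A second Col6a2 probe had ratios of 1.50 and 1.34. A second Col6a3 probe had levels of -5.89 and -7.82 in mLN and -5.24 and -5.59 in pLN, with ratios of 0.639 and 0.214. It was well above background on 1 of the 2 mLN arrays. Its mean was 1.72-fold lower in mLN after raising, and its interval of -3.26 to 0.39 included 0, with an adjusted p of 0.479. Its 2 mLN arrays differed by more than the node means did.

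Col15a1 and Col18a1, the collagens that tie basement membranes to the tissue around them, were lower in mLN by a small amount in every probe. The ratios in the 2 experiments were 0.801 and 0.898, and 0.778 and 0.759, for Col15a1, and 0.821 and 0.702, and 0.704 and 0.694, for Col18a1. Their differences lay between -0.52 and -0.24 and none passed the test. Col7a1, the chain of the anchoring fibrils of skin, had ratios of 0.937 and 0.930, and Col28a1, known from peripheral nerve, had ratios of 0.872 and 0.421. The median over the 18 tested probes of the other types was -0.39, with 13 of them negative, and it was -0.19 without mLN of experiment 2.

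The remaining 14 probes were too dim to test. Their levels lay between -9.33 and -5.88 in mLN and between -9.23 and -6.22 in pLN, and their ratios, which carry little information at this signal, lay between 0.490 and 3.56 in experiment 1 and between 0.413 and 3.91 in experiment 2. They include the probes for Col10a1, a chain of growth plate cartilage, and Col20a1, and further probes of Col2a1, Col3a1, Col4a3, Col6a3, Col11a1, Col16a1, Col17a1, Col19a1 and Col25a1. Of the 25 genes with more than 1 tested probe, 16 had probes of the same sign and 4 (Col14a1, Col19a1, Col4a6 and Col6a3) had probes that differed by over 1 on the log2 scale. Which exon each probe reads was not determined, since no annotation of mm8 was used here.

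The promoters of Col13a1, Col23a1 and Col8a2 are shown, chosen after the values were seen, as those of the 2 transmembrane genes and of the gene with the largest positive difference among the 7 genes with a probe past 2-fold in both experiments. Each is the 250 bases before the gene's start in RefSeq on GRCm38.p6, with capitals marking GGGCGG (the GC box), CCAAT or TATAAA on either strand. In the windows of the same length before 32851 mouse transcription starts, 32.7% hold GGGCGG, 33.8% CCAAT and 12.4% TATAAA. The windows lie at chr10:61979109-61979358 on the minus strand for Col13a1, chr11:51289670-51289919 on the plus strand for Col23a1 and chr4:126286544-126286793 on the plus strand for Col8a2.
Col13a1: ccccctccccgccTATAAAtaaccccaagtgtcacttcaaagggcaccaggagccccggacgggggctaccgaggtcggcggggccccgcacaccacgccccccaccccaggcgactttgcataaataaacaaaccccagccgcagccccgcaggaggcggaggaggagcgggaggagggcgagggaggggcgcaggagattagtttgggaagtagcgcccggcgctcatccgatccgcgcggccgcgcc
Col23a1: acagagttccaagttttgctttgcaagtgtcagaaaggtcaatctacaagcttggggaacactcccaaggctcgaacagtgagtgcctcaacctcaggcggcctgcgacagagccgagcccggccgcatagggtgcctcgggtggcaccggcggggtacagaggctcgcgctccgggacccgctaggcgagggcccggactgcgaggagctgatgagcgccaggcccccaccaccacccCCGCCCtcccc
Col8a2: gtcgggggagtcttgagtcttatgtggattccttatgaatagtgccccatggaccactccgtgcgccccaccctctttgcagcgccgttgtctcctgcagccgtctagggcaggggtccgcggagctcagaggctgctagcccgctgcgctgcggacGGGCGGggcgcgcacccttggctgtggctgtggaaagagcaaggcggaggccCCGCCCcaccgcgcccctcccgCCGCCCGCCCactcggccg
The window of Col13a1 holds TATAAA at 1 position, that of Col23a1 holds GGGCGG at 1 position and that of Col8a2 at 4, of which the last 2 overlap. None of the 3 windows holds CCAAT. Their GC content was 68.8%, 66% and 70%, against a median of 52.4% over all windows.

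Genes that build, cut, link and sense collagen were followed as 51 genes, of which 47 were tested, and each gene is given by its brightest tested probe. None passed 0.05 in limma. At an unadjusted p under 0.05 stood 8 genes higher and 3 genes lower in mLN, which is 11 of 47. Over the array this held for 13.4% of all tested probes, and for 3152 of 21491 with 1 probe per gene. With the variance allowed to follow intensity, 1 gene, Ddr2, passed. The median difference over the 47 genes was 0.18, against -0.05 over all tested probes and -0.03 over the array with 1 probe per gene. Of the 18 tested genes for hydroxylation, glycosylation and folding, Colgalt2, which adds galactose to collagen, had levels of -1.14 and -1.42 in mLN and 0.07 and -0.22 in pLN and a difference of -1.20 ± 0.19 (adjusted p = 0.121). P4ha1, a subunit of prolyl 4-hydroxylase, and Fkbp14, a folding helper of the endoplasmic reticulum, had differences of 0.66 ± 0.18 and 0.60 ± 0.16. Both were higher in mLN on every array, as 18.7% of all tested probes were.

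Of the 13 tested genes for secretion and processing, Adamts3 and Adamts2, proteinases that remove the amino-terminal propeptide of procollagen, had differences of 0.97 ± 0.14 (adjusted p = 0.104) and 0.95 ± 0.31 in their brightest probes. The 3 tested probes for Adamts3 ran from -0.30 to 0.97, with signs that disagreed, and the 4 for Adamts2 from 0.14 to 0.95. That probe for Adamts2 had levels of 2.81 and 2.00 in mLN and 1.45 and 1.46 in pLN. Tll1, a proteinase of the carboxy-terminal propeptide, had a difference of -0.73 ± 0.26. Of the 5 crosslinking genes, Loxl1, a lysyl oxidase, had levels of 3.43 and 3.08 in mLN and 2.26 and 2.09 in pLN. Its difference was 1.08 ± 0.19 (adjusted p = 0.138). Its relatives Loxl2 and Loxl3 had 0.40 ± 0.31 and 0.17 ± 0.14, while Lox and Loxl4 had -0.14 ± 0.25 and -0.07 ± 0.36. Of the 11 receptor genes, Ddr2, a receptor tyrosine kinase that binds fibrillar collagen, had levels of 3.68 and 3.95 in mLN and 2.80 and 2.83 in pLN and a difference of 1.00 ± 0.17 (adjusted p = 0.127). Mrc2, an endocytic collagen receptor, had 0.51 ± 0.18 in its brightest probe, with 3 tested probes between -0.46 and 0.51. Itga10, a collagen-binding integrin chain, was well above background on 1 of the 2 mLN arrays. Its levels were -6.92 and -6.61 in mLN and -5.56 and -6.17 in pLN. The mean was 1.81-fold lower in mLN after raising, with an adjusted p of 0.285. In the brightest probes for Adamts3, Adamts2, Loxl1 and Ddr2 both mLN arrays stood above both pLN arrays. These genes were named for their small p, and 18.7% of all tested probes showed the same order, so it adds no support.

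**Figure D4:**
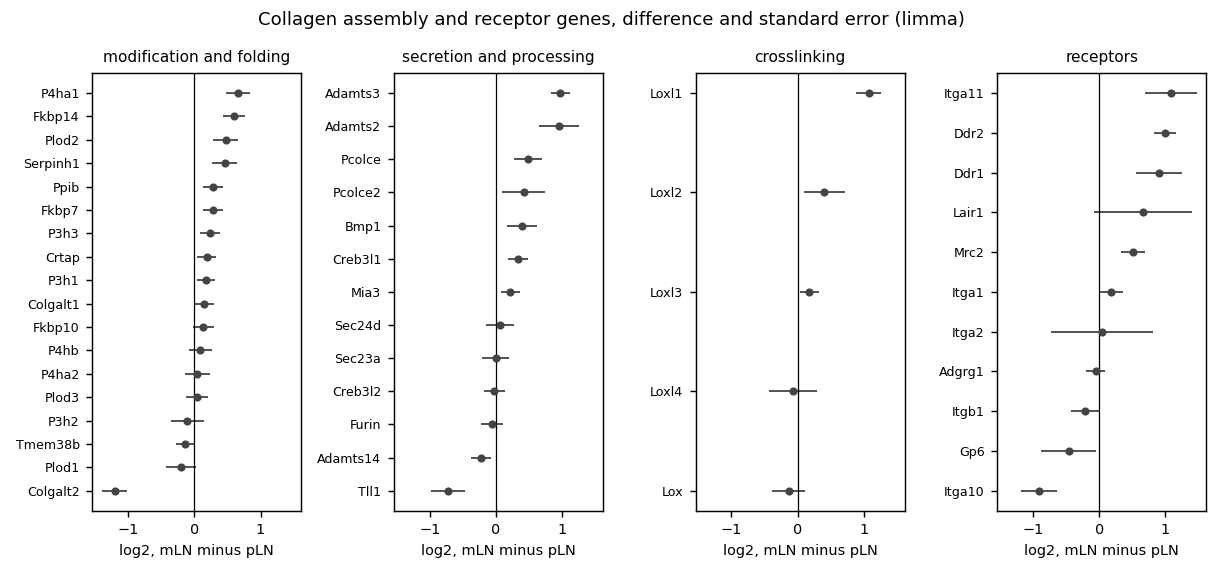
Difference mLN minus pLN on the log2 scale with its standard error for the tested genes of collagen folding, processing, crosslinking and reception, positive values being higher in mLN. Colgalt2, Itga10 and Tll1 lie lowest, Loxl1, Itga11 and Ddr2 near 1, and none of the 47 genes passed the threshold of 0.05 in limma.

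Markers of other cell types that the preparation could hold are given beside these values. Of 7 tested mesothelial markers, 5 were called higher in mLN, and the summed signal of the list was 50627 to 69705 in mLN and 11328 to 12039 in pLN. Most of the pLN sum came from Krt19 (5832 and 8179) and Krt8 (5385 and 3807), which were not called. The 5 called, Msln, Upk3b, Wt1, Upk1b and Bnc1, had signals of 869 to 18612 in mLN and 3.3 to 52 in pLN, in part below the well-above-background mark. Among 7 acinar pancreas markers all had a positive difference and none passed, and their summed signal was 591695 to 1632760 in mLN, against 36831 in pLN of experiment 1 and 2007 in pLN of experiment 2. Of 8 epithelial markers 7 were negative and 1, Csn3, was called lower in mLN, with sums of 1366 to 1566 in mLN and 6049 to 16417 in pLN. Csn3 alone gave 4015 and 11954 of the pLN sums, and Krt14 had the positive difference, 0.54 ± 0.35. Of 7 endothelial markers all were negative and none passed, with sums of 99253 to 112803 in mLN and 141386 to 159270 in pLN. Fibroblast markers had a median difference of 0.03 and pericyte and smooth muscle markers one of 0.47, with none passing in either list, and leukocyte, Schwann cell and adipocyte markers also gave no call. Of the 8 pericyte and smooth muscle markers, 6 had a positive and 2 a negative difference. The part of these cell types in the collagen values was not tested.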

How the data were processed

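RNA of 4 samples (mLN and pLN in 2 experiments; 80 ng each) was read on single-dye Agilent whole mouse genome arrays. Per the file headers, the arrays lay on 1 slide scanned once, and Agilent Feature Extraction 9.5.3.1 made the deposited processed signal, an intensity corrected for background, and the flags of 0 or 1 that mark spots well above background, saturated or outlying. The authors also deposited an intensity table, equal to the processed signal times 1 factor per array (0.862 to 0.890, column medians 161 to 172). Its scaling is not stated in the labels, and it served as an alternative.

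Control and outlier spots were left out, spots of a probe averaged, log2 taken and each array's 75th percentile subtracted. No collagen probe was lost. Across the arrays 74.0% to 81.1% of probes were well above background. The number of arrays limits the precision. Tests used limma 3.58.1 in R 4.3.3 (lmFit, eBayes) on the 31883 probes marked well above background throughout mLN, throughout pLN or both, with Benjamini-Hochberg adjustment over all of them. The total was 4.37 degrees of freedom. An exact permutation test of 2 against 2 arrays cannot go below p = 0.333. Probe names and mm8 coordinates are those of the files, and 61 collagen accessions were found in the RefSeq table, all 61 with the same symbol. Some probes were not well above background on both arrays of a node. There the signal was raised, where lower, to the lowest signal well above background on each array. The fold of the means is then given as a fold after raising, which is no lower limit for either experiment. The adjusted p and interval beside it are those of the values before raising. Labels number the experiments, and deviations of the 2 nodes correlated across probes with r = 0.226, so the experiment was also fitted as a block, given where it changed a call. The fit was tested on simulated data.

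The members, classes and lists were chosen with earlier results of these data known. Probes described on every array are those that pass 0.05, those past 2-fold the same way in both experiments and the 3 brightest genes of each class. Of the assembly and receptor lists up to 3 genes each by p are named. Genes or probes named beyond this rule were chosen after their values were seen. Alternatives were other scalings, background corrections, filters and variance models, 1 probe per gene, the experiment as a block, and each array left out.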

Additional observations from a re-analysis of the deposited data

How the results depend on the processing

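The 2 calls among collagen probes became 1 with the experiment as a replicate block (Col14a1), 4 with median scaling (2 for Col13a1, and Col14a1 and Col8a2), 3 with variance following intensity (1 for Col13a1, lower, and Col14a1 and Col8a2, higher), 2 with 1 probe per gene (Col13a1 and Col14a1), 1 with quantile normalization, 1 when every array had to show the probe well above background, 0 with normexp and 0 with no filter on dim probes, where the smallest collagen adjusted p was 0.107. With 1 array left out a node has a single array, so these fits are given here by their differences alone. The Col8a2 difference then lay between 1.97 and 2.60. The count for assembly and receptor genes was 0 and became 1 (Ddr2) with variance following intensity. Probes past 2-fold in both experiments numbered 4 with normexp, and 4 with 1 probe per gene, which keeps 38 probes. Over all probes the calls were 234 of 31883, against 316 with the replicate block, 368 with median scaling and 255 with quantile normalization. Variance following intensity gave 464 and normexp 0. The calls were 227 of 21491 with 1 probe per gene and 22 of 41155 with no filter. They were 167 of 29769 when every array had to show the probe well above background. At an unadjusted p under 0.05 in limma, normexp held 662 probes. Normexp also moved the median of all probes from -0.05 to 0.50, and the class medians to 0.71 (fibrillar), 0.73 (network), 1.42 (fibril-associated) and 0.31 (other). With 1 probe per gene the medians were 0.41 for fibril-associated and -0.10 for other chains. Leaving out 1 array gave medians of 0.072 to 0.45 for network chains, -0.12 to 0.36 for fibril-associated, -0.58 to -0.19 for other and -0.064 to 0.16 for fibrillar ones. Of 21 named probes, 11 kept their sign throughout. Under normexp the sign turned for Col13a1 (1.14) and Col23a1 (1.35) in their dimmest probes, and for Col1a2 (-0.30), Col3a1 (-0.30), Col1a1 (-0.25), Col4a1 (-0.31), Col4a4 (-0.12) and Col6a3 (-0.25). With quantile normalization it turned for Col3a1 (-0.032), Col1a1 (-0.014) and Col4a1 (-0.011). With 1 array left out it turned for Col12a1 (range -0.18 to 0.43), Col1a2 (-0.020 to 0.17), Col3a1 (-0.058 to 0.15), Col1a1 (-0.18 to 0.37), Col4a1 (-0.21 to 0.26) and Col4a2 (-0.38 to 0.067). The cause of these shifts was not tested.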
